A study of Mus musculus with 6 samples.

Results

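The genes described here are 10 transcription factors and chromatin proteins known for repressing Cdh1, the E-cadherin gene, or for driving epithelial-mesenchymal transition (EMT). They were chosen by symbol: Zeb1, Zeb2, Snai1, Snai2, Twist1, Twist2, Tcf3, Tcf4, Foxq1 and Hmga2. All 10 were found among the 41214 genes of the deposited tables. The 6 RNA-seq libraries were made from explant cells of mammary tumours that derive from NMuMG, an untransformed epithelial line of the mouse mammary gland, and in every group the cells express the receptor tyrosine kinase ErbB2. The control group carried the shCTL hairpin (3 libraries, genotype WT) and the other carried the shCdGAP hairpin (3 libraries, genotype CdGAP KD). CdGAP, the product of Arhgap31, turns off Cdc42 and Rac1, a pair of small GTPases, and the series title names it together with Zeb2 as a repressor of E-cadherin transcription. The labels do not say whether replicates came from separate cultures or clones, so p-values reflect only how these libraries vary, which could be technical variation.

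E-cadherin joins epithelial cells at adherens junctions, and its gene is a textbook target of repression during EMT. The ZEB proteins (Zeb1, Zeb2) and SNAIL proteins (Snai1, Snai2) are zinc finger factors that bind E-box sequences of the form CACCTG and recruit co-repressors such as CtBP, histone deacetylases and the demethylase LSD1. TWIST proteins and the E proteins Tcf3 (also called E2A) and Tcf4 (also called E2-2) are basic helix-loop-helix factors that bind E-boxes as dimers, and ID proteins block them by pairing without binding DNA. Tcf3 and Tcf4 here are these E proteins, not the Wnt effectors Tcf7l1 and Tcf7l2 that share their older names. Foxq1 is a forkhead factor linked to loss of E-cadherin, and Hmga2 is a chromatin protein that acts upstream of other EMT factors and is held down by let-7 microRNAs.

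Of the 10 genes, 9 had enough counts to be tested. In shCdGAP Zeb2, Snai1 and Hmga2 fell, Foxq1 and Twist2 rose, and Zeb1, Tcf3, Tcf4 and Snai2 were not called (edgeR quasi-likelihood test, adjusted p under 0.05). Twist1 had 0 counts in all 6 libraries. The 5 called genes of 9 stand beside 21.7% of all 13483 tested genes, with 3 fallen against 11.4% of all and 2 risen against 10.4%. Groups did not overlap for 6 of the 9, the 5 called genes and Snai2, against 44.1% of all tested genes. The members' median log2 fold change was −0.11, with Tcf3 at the middle, beside 0.01 over all tested genes. Twist2 entered the test only through its counts in shCdGAP, where it is high, so it had to differ once tested. Without it 1 member rose and 3 fell.

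Total counts ran from 19176540 to 26824249 per library. Arhgap31 was lower in every shCdGAP library than in any shCTL library, at 13.2, 14.4 and 15.1 CPM (each gene's count as a share of the TMM-scaled library total, times 1000000) in shCTL and 1.70, 9.16 and 8.21 CPM in shCdGAP (log2 fold change −1.16 ± 0.55, SE, edgeR adjusted p = 0.19). It was lowest in shCdGAP replicate 1, a library that stood apart: over genes with at least 10 counts in the pair compared, its counts differed from those of replicates 2 and 3 by 149.6 and 194 (chi-square over its degrees of freedom), against 13.5 between replicates 2 and 3. In shCTL replicate 1 stood apart too, by less, at 26.0 and 26.9 from replicates 2 and 3, against 3.00 between replicates 2 and 3. Without shCdGAP replicate 1 Arhgap31 passed (−0.71, adjusted p = 0.00407, with a range of 0.000408 to 0.358 over 12 alternatives). Cdh1 was at 173, 260 and 264 CPM in shCTL and 859, 690 and 754 CPM in shCdGAP, and its rise (log2 fold change 1.72 ± 0.19, adjusted p = 0.00193) was called under all 12 alternatives. Of the luminal markers fixed for the labelled epithelium, Krt8 and Krt18 were abundant at 3611 and 3042 CPM in shCTL, while Cldn7 was at 0 in all libraries and Epcam at 0 in shCdGAP. Basal markers, Krt5 among them, summed to at most 1.73 CPM in any library.

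Several of these factors are known from connective tissue and myeloid cells, so the markers of such cells are given here. The 9 fibroblast markers summed to 5.39 to 6.29 CPM in shCTL and 3.45 to 7.06 CPM in shCdGAP, with Lum and Thy1 at 0 in all 6 libraries and Col1a2, Col3a1 and Pdgfrb at group means of at most 0.0846 CPM. The 8 myeloid markers summed to 167 to 174 and 107 to 201 CPM, nearly all of it Cd14 (150 CPM in each group's mean), with Adgre1 and Tyrobp at 0 in all libraries. Only Itgam among the myeloid markers was called (0.213 to 1.41 CPM, higher in shCdGAP). Endothelial markers summed to at most 1.24 CPM, lymphocyte markers to at most 0.567 CPM and adipocyte markers to at most 4.85 CPM. At these low levels 1 of 1 tested basal, 1 of 1 tested endothelial and 2 of 2 tested adipocyte markers fell, beside 11.4% of all tested genes. Basal and endothelial markers each summed to at most 0.159 CPM in shCdGAP, below the filter's minimum of 0.408 CPM. The tested marker of each thus passed the filter only through shCTL and had to differ once tested. The lower value of Itgam was below that minimum too, so the filter favoured a difference there. The part of such cells in the results was not tested. In bulk RNA, fewer cells of a type and less RNA per cell cannot be told apart.

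The order of abundance was read per length, as TMM-scaled RPKM (CPM per kilobase of the exon length in the tables). In shCTL the means were 85.1 for Hmga2, 25.9 for Tcf3, 10.6 for Snai1, 3.16 for Zeb1, 2.61 for Foxq1, 2.50 for Snai2, 1.88 for Tcf4, 1.75 for Zeb2 and 0.0791 for Twist2. Hmga2, Tcf3, Snai1 and Zeb1 each lay above the next gene in that order with no overlap among the 3 libraries. Foxq1 against Snai2, Snai2 against Tcf4, and Tcf4 against Zeb2 overlapped in their ranges over libraries, so these neighbours did not differ beyond their spread, although Snai2 was above Tcf4 within each of the 3 libraries. Among the ZEB and SNAIL repressors Snai1 thus had the highest level, and Zeb2, 8th of the 10 genes, had the lowest mean, with its range overlapping that of Snai2.

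In shCdGAP the order changed at several places. The means were 28.4 RPKM for Hmga2, 24.0 for Tcf3, 7.58 for Foxq1, 5.07 for Snai1, 3.06 for Zeb1, 1.84 for Tcf4, 1.48 for Twist2, 1.02 for Snai2 and 0.895 for Zeb2. Hmga2 and Tcf3 overlapped there, and in 1 of the 3 libraries Tcf3 was the higher. By group mean Foxq1 had moved from 5th to 3rd and Twist2 from 9th to 7th. Zeb2 stood 9th by mean, ahead of Twist1 alone, and 8th without shCdGAP replicate 1. In no single library was Zeb2 lower than 8th, and Snai2 was above Zeb2 in only 1 of the 3 shCdGAP libraries. Foxq1 and Snai1 overlapped in range, with Foxq1 the higher within each of the 3 libraries. From Tcf4 down to Zeb2 each neighbour pair overlapped.

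The place of Zeb2 depends on which length is used, since its exon union is 19658 bases against 9124 for its longest protein-coding transcript in GENCODE M21. With that transcript length, chosen after seeing the data, Zeb2 was 5th in shCTL at 3.77 RPKM, behind Snai1 at 10.6 and Zeb1 at 5.51, and 7th in shCdGAP at 1.93, above Snai2 at 2.51 and 1.02 in the 2 groups. Zeb1 then stood at 5.34 RPKM in shCdGAP, above Snai1 at 5.07, so their order there reversed. Hmga2 and Tcf3 remained first and second in both groups. The deposited length of Foxq1 (2653 bases) is shorter than its M21 transcript (4843 bases), and with the longer one Foxq1 was 8th in shCTL and 5th in shCdGAP.

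**Figure D1:**
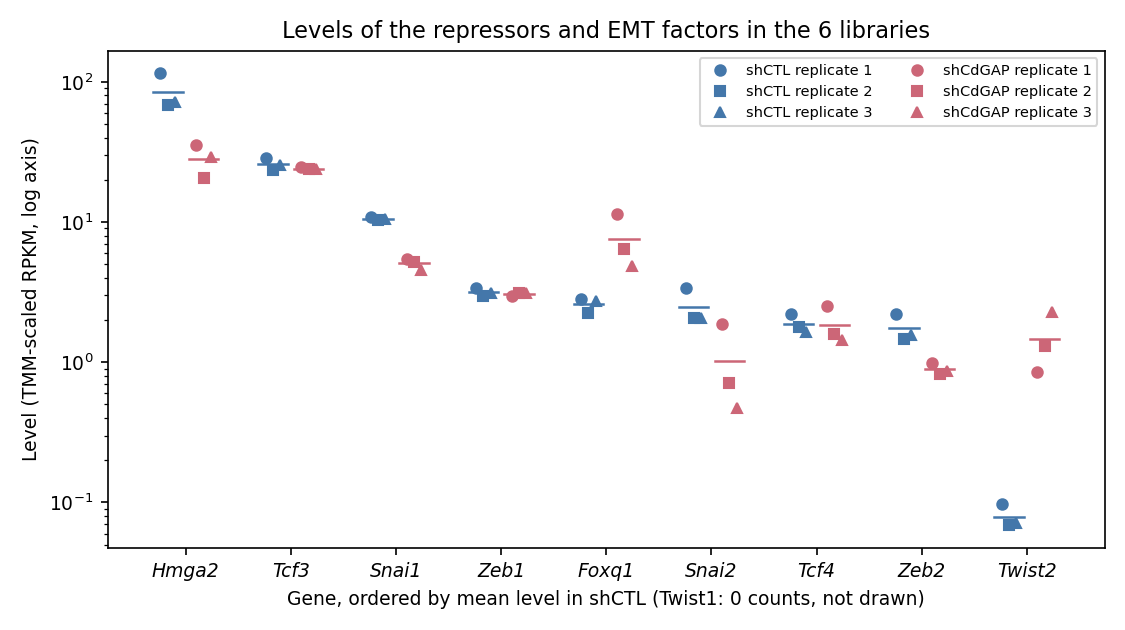
Level of each gene in each library as TMM-scaled RPKM on a log axis, ordered by the shCTL mean. Points are libraries (blue shCTL, red shCdGAP, with a marker shape per replicate) and bars are group means. Hmga2 runs from 115 in shCTL replicate 1 to 20.5 in shCdGAP replicate 2. By the deposited exon length, used here, Zeb2 lies near the bottom of the order in both groups. With the longest protein-coding transcript length it is 5th in shCTL and 7th in shCdGAP.

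Zeb2, the repressor named with CdGAP in the series title, was at 43.6, 28.8 and 30.8 CPM in the shCTL libraries, numbered 1 to 3, and at 19.5, 16.1 and 17.1 CPM in the shCdGAP libraries. Every shCdGAP library was below every shCTL library, and shCTL replicate 1 was the highest of the 6. The mean fell 1.96-fold, from 34.4 ± 8.04 to 17.6 ± 1.75 CPM (SD, n = 3; log2 fold change −0.97 ± 0.19, SE, edgeR adjusted p = 0.0158). Without shCdGAP replicate 2 the call was lost (−0.91, adjusted p = 0.0668), the largest adjusted p over 12 alternatives, whose smallest was 3.19e-05. Zeb2os, the antisense gene named for Zeb2, had 3, 1 and 0 counts in each group, and the strand-specific counting kept it apart from Zeb2.

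Its paralog Zeb1 was not called. It was at 34.4, 30.1 and 31.4 CPM in shCTL and 29.9, 31.4 and 31.6 CPM in shCdGAP, so the groups overlapped within a narrow range (log2 fold change −0.04 ± 0.11, edgeR adjusted p = 0.82). Within a library, Zeb2 had 1.27, 0.959 and 0.982 counts per Zeb1 count in shCTL, in replicate order, and 0.653, 0.514 and 0.541 in shCdGAP. This ratio is not per length and is compared only between libraries, where the groups did not overlap. By the deposited exon length, Zeb2 made up 33.0% to 39.5% of the summed ZEB level in shCTL and 20.9% to 25.2% in shCdGAP. These shares depend on the length used. With the longest protein-coding transcript length the means were 3.77 RPKM for Zeb2 and 5.51 for Zeb1 in shCTL, and 1.93 and 5.34 in shCdGAP.

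Snai1, which encodes the SNAIL repressor, was at 17.7, 16.7 and 17.004 CPM in shCTL and 8.89, 8.39 and 7.37 CPM in shCdGAP. Both groups were tight and far apart. The fall was 2.09-fold (17.2 ± 0.538 to 8.22 ± 0.774 CPM, SD, n = 3; log2 fold change −1.06 ± 0.14, edgeR adjusted p = 0.00366), and it was called under all 12 alternatives (adjusted p at most 0.026). Among the members with at least 10 CPM, Snai1 also had the pattern most like that of Zeb2. The root mean square difference of their mean-centred log2 CPM over the 6 libraries was 0.19, against 0.36 for Hmga2, 0.44 for Tcf3, 0.48 for Zeb1 and Tcf4 and 1.24 for Foxq1.

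Snai2, which encodes the related repressor SLUG, was at 6.86, 4.18 and 4.18 CPM in shCTL and at 3.80, 1.45 and 0.952 CPM in shCdGAP. The lowest shCTL library and shCdGAP replicate 1 were close, while shCdGAP replicates 2 and 3 lay well below. The log2 fold change was −1.29 ± 0.53 and did not pass (edgeR adjusted p = 0.139). That fit did not pair the libraries. The replicate numbers were entered as a block in an alternative, although replicates 2 and 3 also correlated crosswise. With that replicate block Snai2 passed (−1.47, adjusted p = 0.0407). It also passed without shCdGAP replicate 1 (−2.06, adjusted p = 0.00193) and without both libraries numbered 1 (−1.80, adjusted p = 8.26e-05), and over 11 alternatives the adjusted p reached 0.31. By the deposited exon length, Zeb1, Zeb2, Snai1 and Snai2 summed to 19.9, 16.8 and 17.2 RPKM in shCTL and 11.3, 9.82 and 9.01 RPKM in shCdGAP. Snai1 then had the largest share in every library. With the longest protein-coding transcript length the shCdGAP means were 5.34 RPKM for Zeb1 and 5.07 for Snai1, the reverse order.

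Of the TWIST genes, which encode partners of the E proteins, Twist1 had 0 counts in all libraries, so its level lay below a limit of 0.109 to 0.155 CPM, depending on the library (3 counts, counting error only). Twist2 had 6, 6 and 6 counts in shCTL, or 0.310, 0.218 and 0.226 CPM, and 61, 91 and 182 counts in shCdGAP, or 2.73, 4.13 and 7.22 CPM. Even the lowest shCdGAP library was far above shCTL: in CPM of the plain total its exact 95% binomial interval ran from 2.02 to 3.38, and the highest shCTL upper bound was 0.681. The rise was 18.7-fold (log2 fold change 4.22 ± 0.47, edgeR adjusted p = 0.00194) and was called under all 11 alternatives that tested it. Twist2 passed the filter on low counts only through shCdGAP, so the filter favoured a difference and these values are a description. Per length Twist2 still lay below Snai1 in every shCdGAP library, at 0.859, 1.30 and 2.27 RPKM against 5.49, 5.17 and 4.55.

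The E proteins were present throughout and were not called. Tcf3 was at 115, 95.1 and 103 CPM in shCTL and 99.1, 95.8 and 96.2 CPM in shCdGAP (log2 fold change −0.11 ± 0.11, edgeR adjusted p = 0.519). It supplied 53.0% to 54.2% of the summed RPKM of the genes other than Hmga2 in shCTL and 48.5% to 57.5% in shCdGAP. Tcf4 was at 27.0, 21.9 and 20.3 CPM in shCTL and 30.7, 19.5 and 17.5 CPM in shCdGAP (−0.03 ± 0.25, adjusted p = 0.954), with shCdGAP replicate 1 the highest library of the 6 and replicate 3 the lowest.

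Foxq1 was higher in all 3 shCdGAP libraries, by unequal amounts. It was at 7.48, 6.004 and 7.26 CPM in shCTL and at 30.2, 17.2 and 13.0 CPM in shCdGAP, and shCdGAP replicate 1 was the highest. The mean rose 2.91-fold (6.92 ± 0.797 to 20.1 ± 8.99 CPM, SD, n = 3; log2 fold change 1.54 ± 0.33, edgeR adjusted p = 0.02). The call was lost without shCTL replicate 1 (log2 fold change 1.58, adjusted p = 0.0621), 2 (1.45, adjusted p = 0.0884) or 3 (1.58, adjusted p = 0.076), with estimates close to that from all libraries. Over 12 alternatives the adjusted p ran from 8.55e-05 to 0.0884.

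Hmga2 was at 779, 461 and 489 CPM in shCTL and at 240, 139 and 198 CPM in shCdGAP. The groups did not overlap although each was wide, and replicate 1 was the highest in both. The fall was 3.00-fold (576 ± 176 to 192 ± 50.6 CPM, SD, n = 3; log2 fold change −1.58 ± 0.28, edgeR adjusted p = 0.0102) and was called under all 12 alternatives (adjusted p at most 0.0344). Its share of the summed RPKM of the 10 genes went from 60.4% to 68.2% in shCTL to 32.3% to 41.4% in shCdGAP. Hmga1, its paralog, whose reads processed copies could share, also fell (107 ± 37.4 to 29.6 ± 6.89 CPM, adjusted p = 0.00634).

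**Figure D2:**
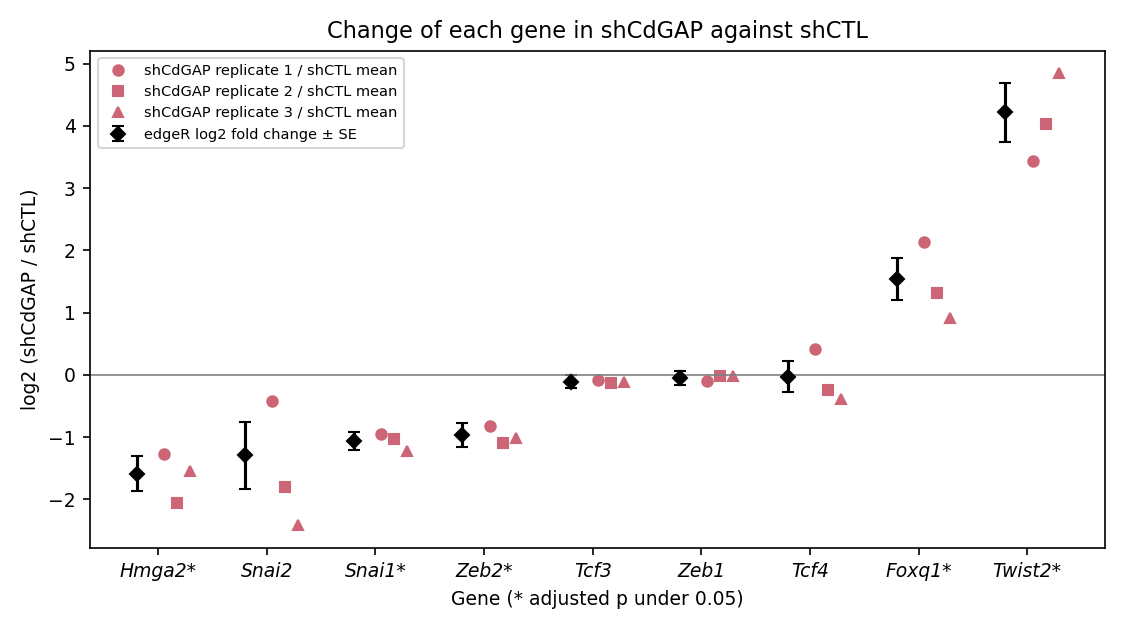
Log2 ratio of shCdGAP to shCTL for each tested gene, as the edgeR estimate (black diamonds, bars of 1 SE) and as each shCdGAP replicate over the shCTL mean (red). All 3 replicates lie below 0 for Hmga2, Snai2, Snai1 and Zeb2 and above 0 for Foxq1 and Twist2. They also lie below 0, but near it, for Tcf3 (lowest −0.13) and Zeb1 (lowest −0.10). Snai2 has the widest bar, with replicate 1 at −0.42 and replicate 3 at −2.41.

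Within groups the members shared a direction. In shCTL, replicate 1 was the highest library for all 9 detected members, while it was the highest for 42.9% of all tested genes. For Twist2, with 6 counts in each shCTL library, this came only from the smaller total of replicate 1. In shCdGAP, replicate 1 was the highest for 7 of 9, Zeb1 and Twist2 excepted, against 49.6% of all. Without shCdGAP replicate 1, the library that stood farthest apart, the log2 fold changes were −1.04 for Zeb2, −1.11 for Snai1, −1.76 for Hmga2, 1.14 for Foxq1, 4.52 for Twist2, −0.01 for Zeb1, −0.11 for Tcf3 and −0.30 for Tcf4, and the first 5 were still called. Cdh1 was lowest in shCTL replicate 1, where the repressors were highest, and highest in shCdGAP replicate 1, where most of them were also highest within their group.

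**Figure D3:**
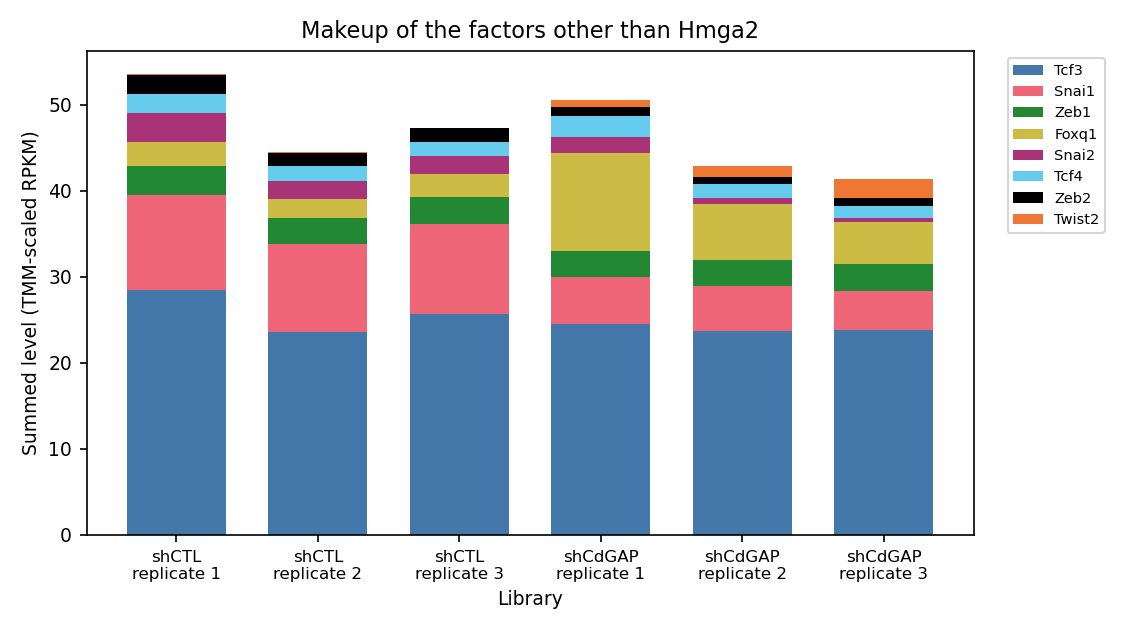
Summed RPKM of the genes other than Hmga2 in each library, stacked by gene (Twist1 is at 0). The sums run from 44.5 to 53.6 in shCTL and from 41.4 to 50.6 in shCdGAP; Tcf3 is the largest block in each bar, and in shCdGAP the Snai1 block is smaller and the Foxq1 block larger.

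The loci are given on GRCm38. Zeb2 (ENSMUSG00000026872) lies on the minus strand of chromosome 2 from 44983632 to 45117395 and Snai1 (ENSMUSG00000042821) on the plus strand of the same chromosome from 167538195 to 167542814. Hmga2 (ENSMUSG00000056758) lies on chromosome 10 from 120361275 to 120476469, Twist2 (ENSMUSG00000007805) on chromosome 1 from 91801461 to 91848028 and Foxq1 (ENSMUSG00000038415) on chromosome 13 from 31556134 to 31560976. Snai2 (ENSMUSG00000022676) lies on chromosome 16 from 14705852 to 14709385, and Tcf3 (ENSMUSG00000020167) on chromosome 10 from 80409514 to 80433647.

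Since the ZEB and SNAIL proteins read the letters CACCTG, promoters were searched for that motif on both strands (CACCTG or CAGGTG), using RefSeq windows of GRCm38.p6 from 250 bases before to 50 after each start. The RefSeq promoter table matched 6 of the 10 members and 21 of 30 epithelial genes listed as known targets. Promoters of Zeb1, Snai2, Tcf4, Foxq1 and Cdh1 were not analysed here. Of the 6 members, Snai1 alone held the motif, with its first letter 126 bases before the start, while Zeb2 at its 4 starts, Twist1, Twist2, Tcf3 and Hmga2 held none. Of all 27018 genes with an entry, 22.6% held it at some start. Snai1 is shown as the member with a match, and Zeb2 at its outermost start for contrast, each as the 250 bases before the start on the strand of the gene, 5′ to 3′, with CACCTG or CAGGTG in capitals.
Snai1, chr2:167537945-167538194, plus strand: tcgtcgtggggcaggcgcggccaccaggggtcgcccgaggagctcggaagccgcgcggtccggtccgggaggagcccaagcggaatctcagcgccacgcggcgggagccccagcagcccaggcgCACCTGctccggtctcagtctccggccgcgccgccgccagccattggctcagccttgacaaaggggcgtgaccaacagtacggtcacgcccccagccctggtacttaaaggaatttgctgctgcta
Zeb2, chr2:45117443-45117692, minus strand: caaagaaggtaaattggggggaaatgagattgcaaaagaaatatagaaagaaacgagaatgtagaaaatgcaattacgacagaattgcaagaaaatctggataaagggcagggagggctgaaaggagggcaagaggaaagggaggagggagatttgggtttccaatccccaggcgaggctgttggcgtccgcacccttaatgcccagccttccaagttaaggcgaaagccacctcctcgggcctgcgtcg

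In the epithelial target list, of 21 genes with a promoter entry, 18 held the motif, and over single starts it was 22 of 28 (78.6%) against 20.2% of all 32841 starts. The list was drawn from genes known as targets, so the share describes the list and tests nothing. Genes with a match were found in each class of call. Among the genes with an entry, 5 of the 6 that rose held it (Ocln, Tjp3, Crb3, Patj and Muc1, but not Cgn), both that fell (Epcam and Cldn6), and all 4 that were not called (Dsp, Krt8, Krt18 and Vdr). The promoters of Crb3 and Muc1, which rose, and of Epcam, which fell, are shown in the same form, chosen after their values and matches were seen.
Crb3, chr17:57061951-57062200, plus strand: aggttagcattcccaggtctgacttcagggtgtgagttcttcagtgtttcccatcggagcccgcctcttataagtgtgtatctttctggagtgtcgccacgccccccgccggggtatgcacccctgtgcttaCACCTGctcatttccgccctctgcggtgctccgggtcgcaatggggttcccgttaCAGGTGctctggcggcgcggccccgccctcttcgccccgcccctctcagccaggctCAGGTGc
Muc1, chr3:89228806-89229055, plus strand: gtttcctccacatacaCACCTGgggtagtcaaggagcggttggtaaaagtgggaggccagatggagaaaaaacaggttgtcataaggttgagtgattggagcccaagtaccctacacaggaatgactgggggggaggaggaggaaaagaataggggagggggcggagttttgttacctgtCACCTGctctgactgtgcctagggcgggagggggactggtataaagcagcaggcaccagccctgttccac
Epcam, chr17:87635729-87635978, plus strand: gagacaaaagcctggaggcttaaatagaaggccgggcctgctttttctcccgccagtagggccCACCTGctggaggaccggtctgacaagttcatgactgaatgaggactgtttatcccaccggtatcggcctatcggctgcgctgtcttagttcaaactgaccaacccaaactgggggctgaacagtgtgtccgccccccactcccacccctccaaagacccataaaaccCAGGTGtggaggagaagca

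These motif-bearing genes moved over a wide range. Crb3, a polarity gene of the apical membrane, was at 0.258, 0.837 and 0.677 CPM in shCTL and 7.64, 6.08 and 4.60 CPM in shCdGAP (edgeR adjusted p = 0.00317). Muc1, an epithelial mucin, was at 7.84, 8.08 and 8.24 CPM against 78.5, 41.5 and 55.9 CPM (adjusted p = 0.000868). Epcam, an epithelial adhesion molecule, had 32, 29 and 31 counts in shCTL and 0 in each shCdGAP library (adjusted p = 0.00343). In all, 8 of 18 tested target genes, Cdh1 among them, rose and 2 fell, beside 10.4% and 11.4% of all tested genes. The median log2 fold change of the 18 was 0.56. Crb3 passed the filter on low counts only through shCdGAP, and Epcam and Cldn6 only through shCTL, so the filter favoured a difference, and without them 7 rose and 0 fell. Without shCdGAP replicate 1, 11 rose and 2 fell, and 8 rose and 2 fell when any other single library was left out. Cgn, a tight junction gene, rose from 35.5 ± 2.30 to 98.9 ± 11.9 CPM without a match, and Cldn6, a claudin, fell from 3.77 ± 1.92 to 0.381 ± 0.19 CPM.

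Of 16 other EMT transcription factors 11 were tested, and 3 fell and 1 rose, beside 11.4% and 10.4% of all tested genes, with a median log2 fold change of −0.36. Prrx2, a homeobox factor, had 124, 233 and 200 counts in shCTL and 4, 0 and 0 in shCdGAP (edgeR adjusted p = 0.00162). Tbx3, a T-box repressor, had 23, 31 and 25 counts against 1, 0 and 0 (adjusted p = 0.00175). Both passed the filter on low counts only through shCTL, so they had to differ once tested, and without them 1 fell and 1 rose. Sox4, a factor of progenitor cells, rose from 123 ± 39.9 to 272 ± 90.9 CPM (adjusted p = 0.0426), and was the only riser of the list. Hmga1 also fell. Without shCdGAP replicate 1, 3 rose and 5 fell, and without shCTL replicate 2 or 3 or shCdGAP replicate 2, 0 rose and 3 fell. Foxc2 and Gsc were at 0 in all libraries.

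Among the partners of these factors, both genes called were ID genes that rose, beside 10.4% of all tested genes. Of the 4 ID genes and Tcf12, another E protein, Id2 rose 2.17-fold (222, 321 and 328 CPM in shCTL against 664, 645 and 578 CPM in shCdGAP; edgeR adjusted p = 0.00618). Id4 rose from 2.87 ± 0.191 to 7.48 ± 1.85 CPM (adjusted p = 0.0095), and Id1, Id3 and Tcf12 were not called. Without shCTL replicate 2 the call of Id4 was lost (adjusted p = 0.056), and without shCdGAP replicate 1 Id3 fell (log2 fold change −0.55, adjusted p = 0.0205, against −0.08 with all libraries). Without both libraries numbered 1, 3 genes of the list rose and 1 fell. Among 26 co-repressors, all tested, 3 rose and 0 fell, with a median log2 fold change of −0.00, a share of risen genes near the 10.4% of all tested genes. They were Wtip (11.1 ± 1.48 to 30.0 ± 6.22 CPM, adjusted p = 0.00413) and Ajuba, both LIM proteins that bind SNAIL, and Ehmt2, the G9a histone methyltransferase (186 ± 6.999 to 247 ± 9.76 CPM, adjusted p = 0.023). Ctbp1, the ZEB co-repressor, was at 119 ± 4.91 and 146 ± 13.2 CPM (adjusted p = 0.096). Without shCdGAP replicate 1, 8 co-repressors rose, and 1 rose when any other single library was left out.

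Of 7 tested SMAD genes, whose family acts in TGF-beta and BMP signalling, only Smad3 was called. It rose from 143 ± 8.504 to 204 ± 5.48 CPM (edgeR adjusted p = 0.011), and without shCTL replicate 2 no SMAD gene was called. Of 17 tested enzymes that act on SNAIL and ZEB proteins, Fbxl5, a ubiquitin ligase subunit, rose (85.5 ± 5.80 to 127 ± 20.7 CPM, adjusted p = 0.032) and Usp27x, a deubiquitinase of SNAIL, fell (9.51 ± 0.432 to 3.34 ± 1.72 CPM, adjusted p = 0.0267). In that list 0 were called without any 1 shCTL library or without shCdGAP replicate 2, 4 rose and 2 fell without shCdGAP replicate 1, and 2 rose and 0 fell without shCdGAP replicate 3. Of the 5 tested genes of the let-7 and Hmga2 axis, Hmga1 alone was called, with Igf2bp2 also fallen under the replicate block (log2 fold change −0.76, adjusted p = 0.022, against 0.0901 without it) and 2 fallen without shCdGAP replicate 1, and Lin28a was at 0 in all libraries. The calls in the SMAD, enzyme and let-7 lists stand beside 10.4% risen and 11.4% fallen of all tested genes.

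Of 9 tested regulators that oppose EMT, 3 rose and 3 fell, beside 10.4% and 11.4% of all tested genes. Ehf, an epithelial ETS factor, was at 0.103, 0.509 and 0.301 CPM in shCTL and 50.8, 66.8 and 92.4 CPM in shCdGAP (edgeR adjusted p = 0.000291). Cdh1, listed with them and counted also among the epithelial targets, rose as given above. The splicing regulator Esrp2 was also called as risen and the factor Klf4 as fallen. The call of Klf4 was lost with the replicate block (log2 fold change −0.43, adjusted p = 0.0803) and without any single library other than shCdGAP replicate 1, which left 2 fallen. Foxa1, a luminal pioneer factor, fell 4.53-fold (32.2 ± 5.88 to 7.12 ± 1.14 CPM, adjusted p = 0.00103). Grhl2, a grainyhead factor known to repress Zeb1, had 59, 50 and 60 counts in shCTL and 0, 2 and 1 in shCdGAP (adjusted p = 0.00151). Ehf passed the filter on low counts only through shCdGAP and Grhl2 only through shCTL, so the filter favoured a difference there too, and without them 2 rose and 2 fell. Ovol1 and Ovol2, repressors of EMT factors, were at group means of at most 0.0516 CPM.

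Of 14 tested mesenchymal genes, 4 rose and 3 fell, beside 10.4% and 11.4% of all tested genes, with a median log2 fold change of 0.10. Loxl2, a lysyl oxidase that acts on matrix and binds SNAIL, rose from 1.22 ± 0.108 to 53.1 ± 0.682 CPM (edgeR adjusted p = 5.64e-05), and Fn1, the fibronectin gene, rose from 127 ± 30.5 to 463 ± 61.5 CPM. Itga5, an integrin of the fibronectin receptor, fell from 104 ± 6.88 to 42.7 ± 5.45 CPM (adjusted p = 0.00127), and Mmp3, a matrix protease, fell from 3.76 ± 1.01 to 0.622 ± 0.258 CPM (adjusted p = 0.00541), having passed the filter on low counts only through shCTL. Without shCdGAP replicate 1, 4 rose and 7 fell, and without any single shCTL library or shCdGAP replicate 2, 2 rose and 3 fell.

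**Figure D4:**
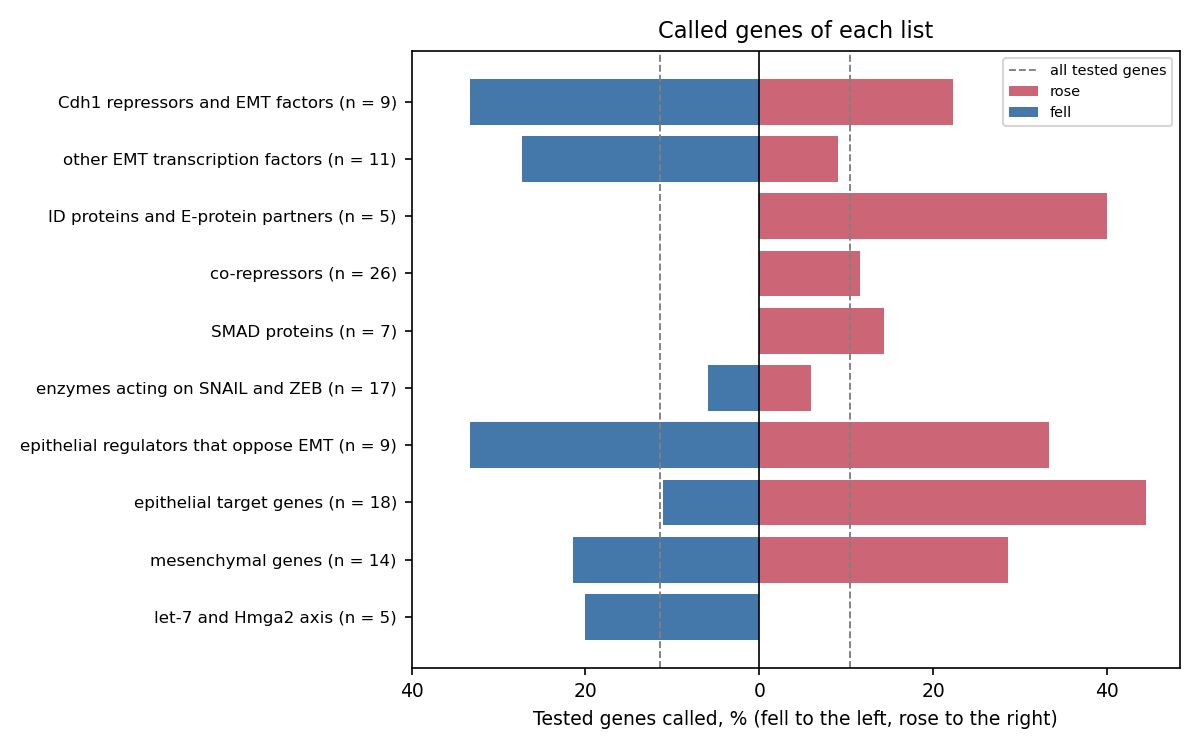
Share of the tested genes of each list that were called in shCdGAP against shCTL, in percent (fell to the left in blue, rose to the right in red), with n the tested genes. Dashed lines mark all tested genes (11.4% fell, 10.4% rose); the epithelial targets extend farthest to the right, with 8 of 18 risen, 1 of them tested only through its shCdGAP counts.

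The genes whose pattern over the 6 libraries was most like that of Zeb2 were sought among 9321 tested genes with a mean of at least 10 CPM. The root mean square difference of mean-centred log2 CPM was 0.052 for Uhrf1bp1l, 0.074 for Slc30a4, a zinc transporter, 0.084 for Nav2, 0.10 for Ampd3, an AMP deaminase, and 0.11 for Eps8, an actin regulator and substrate of the EGF receptor. Uhrf1bp1l was at 249, 181 and 182 CPM in shCTL and 121, 102 and 105 CPM in shCdGAP, with the same high shCTL replicate 1 as Zeb2. These 5 genes were picked by likeness to Zeb2, so their falls are a description.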

How the data were processed

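Total RNA of 3 shCTL and 3 shCdGAP libraries was sequenced on Illumina instruments. The deposited values are raw counts per gene, which the authors made with featureCounts 1.4.6 on Ensembl 77 gene models of GRCm38, with strand setting 2, per the file headers. The deposited length column, another value, is the exon length of each gene in bases, per the file headers. The submitters' processing notes list TopHat2 2.0.14, Trimmomatic 0.30 and CASAVA 1.8, and also Cuffdiff 2.2.1 and DESeq.

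Gene symbols came from GENCODE M21 and matched 40254 of 41214 genes. Counts were tested with edgeR 4.0.16 in R 4.3.3: genes passing filterByExpr (minimum count 10, minimum total count 15) were kept, leaving 13483, library totals were TMM-scaled, and shCdGAP was compared with shCTL by the quasi-likelihood test. A gene was called at a Benjamini-Hochberg adjusted p under 0.05 over all tested genes. Each standard error was taken as the size of the log2 fold change over √F. Means ± SD are over 3 libraries. Binomial intervals are exact Clopper-Pearson at 95%, and these and the limits for 0 counts cover counting error only, since reads are not known to be independent molecules. Promoter sequences and starts are from RefSeq, GRCm38.p6.

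The members and the gene lists were chosen with earlier results of these data known. Named with values were the 10 members, Cdh1, Arhgap31, in each other list up to 2 risen and 2 fallen called genes of smallest adjusted p, and the 5 genes nearest to Zeb2 in pattern. Crb3, Ctbp1, Ajuba, Esrp2, Klf4, Id3, Igf2bp2, Itgam and the genes named for a promoter match, a call or a level at 0 were chosen after their values were seen.

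Pairing was checked on the data, since the labels give only shared replicate numbers. Deviations from the group means correlated between same-numbered libraries at 0.36, 0.29 and 0.25 for replicates 1, 2 and 3 over 13483 genes. Replicates 2 and 3 correlated crosswise too (0.25 for shCTL 3 with shCdGAP 2, 0.19 for shCTL 2 with shCdGAP 3). Replicate 1 of either group correlated negatively with replicates 2 and 3 of the other (−0.26 to −0.35). These values thus set replicate 1 apart from replicates 2 and 3 and do not show 3 pairs. The main fit had no replicate term, and the replicate block was run as an alternative. No 2 libraries of a group agreed within sampling noise (chi-square per degree of freedom at least 3.00), so each was counted. Tested on simulated data of this comparison (10 runs of 13483 genes), edgeR called 21.6% of genes changed 2-fold and 84% of those changed 4-fold, and 6.80% of its calls were false. For DESeq2 1.42.0 these were 54.3%, 92.4% and 26.9%. Each run changed 100 genes 2-fold and 100 genes 4-fold, far fewer than the 2930 called in the data. These shares may therefore not hold for the data. The alternatives were a replicate block, RLE scaling, DESeq2, no filter on low counts, a mean of at least 10 CPM, each library left out, both libraries numbered 1 left out, other length scales for the order of levels, and a shorter promoter window. Figures were drawn with matplotlib 3.10.9.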

Additional observations from a re-analysis of the deposited data

How the results depend on the processing

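Across 12 alternatives 4 to 6 of the members were called. None of the 5 called members nor Cdh1 changed sign, while Zeb1 and Tcf4, which were not called, ran from −0.09 to 0.05 and from −0.30 to 0.13. Of the values of the 9 tested members, Cdh1 and Arhgap31, 121 kept their call, 5 gained one (Snai2 and Arhgap31) and 4 lost one (Foxq1 and Zeb2). The count over all tested genes, 2930 of 13483, was 1695 of the 9325 tested with a mean of at least 10 CPM. It was 7115 without both libraries numbered 1. It ran from 1394 (without shCTL replicate 2) to 5785 (without shCdGAP replicate 1) with 1 library left out, and was also more than 1.5 times lower without shCTL replicate 1 (1845) or 3 (1455) or shCdGAP replicate 2 (1785). The cause was not tested. The replicate block gave 2745 calls, 6 of them members, and Snai2 was the only member whose call it changed (of the list genes, Klf4 and Igf2bp2). Of the 39 genes called in the lists, members included, 27 were called under every alternative that tested them. The rank of Zeb2 by mean level, 8 in shCTL and 9 in shCdGAP, was 3 and 6 in CPM not divided by length. It was 5 and 7 with the longest protein-coding transcript length, an alternative chosen after seeing the data. With 1 library left out it ran from 8 to 8 and from 8 to 9. Of the mesenchymal genes 5 fell with DESeq2 or no filter on low counts, against 3. At 3 libraries a group, edgeR called a minority of simulated 2-fold changes, and of the members not called, Snai2 (log2 fold change −1.29 ± 0.53) is the one that may differ by that much.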
